A study of Macaca mulatta with 24 samples.

Results

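The genes described here encode collagens, laminins, integrins and the FREM proteins, the fibres, sheets and receptors of the extracellular matrix. They were chosen by name: a probe set (the group of short array probes that reports 1 transcript) was taken when it named a single gene whose symbol starts with COL, LAMA, LAMB, LAMC, ITGA or ITGB followed by a digit, or with FREM. Of 52766 probe sets on the rhesus array other than controls, 134 met this rule, for 66 of the 14132 genes that some probe set names alone: 60 probe sets for 35 collagen genes, 20 for 9 laminin chains, 21 for 8 integrin alpha chains, 25 for 8 integrin beta chains and 3 for 3 FREM genes. The remaining 5 probe sets belong to ITGB1BP1, ITGB1BP2 and ITGB3BP, which match the letters but are proteins that bind integrins, and they are kept apart below.

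RNA came from the neocortex of 3 rhesus monkeys (Macaca mulatta), adolescents of 2.6 to 2.7 years, animals 1 and 2 male and animal 3 female, that lived in group cages and received no experimental treatment. Each animal gave 4 areas from the left and the right hemisphere, so every area has 6 arrays from 3 animals and the whole set is 24 arrays. A46 is prefrontal area 46, taken from the banks of the principal sulcus; PMd and PMv are the dorsal and ventral premotor areas beside the arcuate sulcus; M1 is the forelimb region of primary motor cortex near the central sulcus. All animals were perfused with heparinised saline after an overdose of pentobarbital, and the pieces were whole tissue, so each value averages over neurons, glia and vessels. The series set motor areas against a prefrontal area to find genes whose level differs between them.

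In the brain, collagen and laminin trimers build the basement membranes that wrap blood vessels and line the pial surface, while the space between cells is filled mainly by proteoglycans, hyaluronan and their link proteins. Integrins, each a pair of 1 alpha and 1 beta chain, are the cell surface receptors that bind these proteins and connect them to the actin cytoskeleton. FREM3 belongs with FRAS1, FREM1 and FREM2 to a family of very large extracellular proteins; the other family members form a complex in the basement membranes of developing epithelia, whereas FREM3 has become known in cortical cell surveys as a marker of superficial-layer excitatory neurons.

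FREM3 was highest in A46, intermediate in both premotor areas and lowest in M1. Its intensity on the 6 A46 arrays ran from 215.9 through a median of 261.2 to 302.7. In PMv the arrays ran from 133.7 through 175.05 to 294.1, and in PMd from 168.2 through 187.75 to 230.4. All 6 M1 arrays were lower than every array of the other 3 areas, from 76.33 through a median of 100.225 to 132.6. The M1 and A46 arrays did not overlap; both PMv arrays and the right PMd array of animal 3 lay inside the A46 range.

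**Figure D1:**
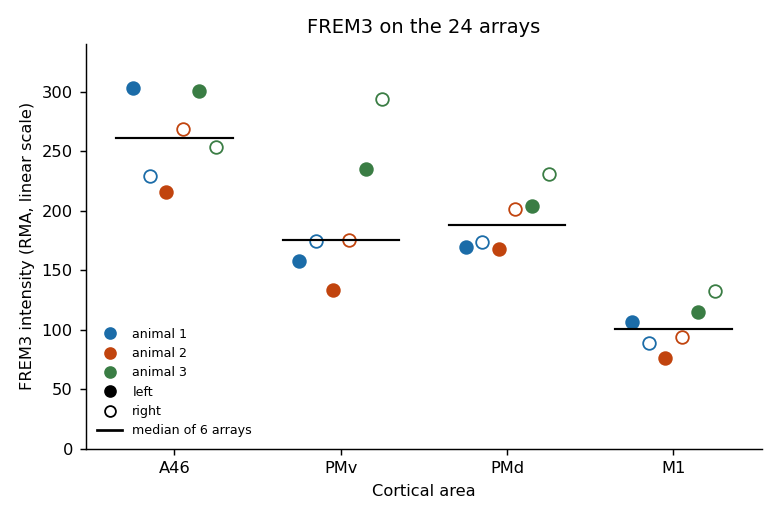
FREM3 probe set intensity (linear scale) on each of the 24 arrays by area, coloured by animal, with left hemispheres filled, right hemispheres open and a line at the median of 6 arrays. The M1 arrays lie between 76.33 and 132.6 and the A46 arrays between 215.9 and 302.7. The PMv and PMd medians lie between those ranges, and 3 premotor arrays of animal 3 lie inside the A46 range.

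On the log2 scale, after averaging the hemispheres of each animal, FREM3 stood at 8.02 ± 0.10 in A46 (SD, n = 3 animals), 7.56 ± 0.42 in PMv, 7.57 ± 0.17 in PMd and 6.65 ± 0.28 in M1. M1 was 2.58-fold below A46, a log2 difference of -1.37 (SE 0.106, 95% interval -1.6 to -1.14, limma adjusted p = 1.03e-05). The difference was negative in every hemisphere: -1.51 and -1.37 in the left and right of animal 1, -1.50 and -1.51 in animal 2, and -1.38 and -0.94 in animal 3. Area accounted for 83.5% of the variance of the 12 animal means, the animal for 12.2% and the remainder for 4.28%. FREM3 had been singled out with its lower level in M1 already known, so these tests describe it and are no independent support. The arrays read bulk tissue, in which fewer cells of a type and less of the transcript per cell cannot be told apart.

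The order of the areas was A46, then both premotor areas, then M1. PMd and PMv did not differ beyond their spread, at 0.01 on the log2 scale (95% interval -0.217 to 0.24, limma adjusted p = 0.99). M1 was lower than PMd by a difference of -0.92 (limma adjusted p = 0.00623) and lower than PMv by a difference of -0.91 (adjusted p = 0.0018). PMd was lower than A46 by a difference of -0.45 (limma adjusted p = 0.0492), and PMv stood at -0.46 against A46 without passing (adjusted p = 0.0547). These comparisons share their areas: each area serves in 3 of them. The spread in PMv came from animal 3, with 8.04 against 7.38 and 7.26 in animals 1 and 2; animal 3 was the highest of the 3 animals in each area.

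FREM3's calls involving a premotor area did not all hold when animals were left out, although every M1 array lay below every premotor array. Without animal 2 the limma adjusted p for M1 against PMd became 0.251 and that for M1 against PMv 0.0626, while PMd against A46 became 0.42 without animal 1 and 0.543 without animal 2. PMv against A46 passed without animal 3, at -0.66 (adjusted p = 0.000233). The M1 to A46 difference passed whichever animal was left out, between -1.47 (limma adjusted p = 2.52e-07, without animal 3) and -1.30 (adjusted p = 0.00201, without animal 2). With area as the only term in the model, FREM3 passed for M1 against A46 (adjusted p = 0.00249) but not for M1 against PMd (0.36) or PMv (0.13), nor for PMd against A46 (0.621).

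The other FREM genes were dim. FREM1, which helps anchor epidermal basement membrane, and FREM2, its partner in that complex, lay below the intensity filter applied before testing (a mean log2 value of at least 5.62, or an intensity of about 49.3) and were not tested; their differences between M1 and A46 were -0.06 and 0.07 on the log2 scale. FRAS1, the founding member of the complex, was read by 2 tested probe sets, of which 1 was lower in M1 at -0.40 (SE 0.119, limma adjusted p = 0.0447). That call was lost without animal 1 (adjusted p = 0.237) and without animal 2 (0.238). NPNT, which encodes nephronectin, an integrin ligand associated with the complex, stood at 0.22 (limma adjusted p = 0.104).

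Transcripts of upper-layer neurons, of cortical neurons in general and of oligodendrocytes also differed between the areas, and their part in the FREM3 difference was not tested. Over the whole array, 5.36% of tested probe sets were called lower and 7.49% higher in M1 than in A46. Of 7 tested upper-layer marker genes, 4 were lower in M1 than in A46 by limma and none was higher, with a median of -0.39; they were CUX2 (-0.69), PCDH8 (-0.67), C1QL2 (-0.47) and MEF2C (-0.39), the last 2 of which did not pass without animal 2 (limma adjusted p = 0.0786 and 0.141). Their summed intensity ranged from 6378 to 7789 on the A46 arrays, from 5177 to 6868 in PMv, from 5769 to 6555 in PMd and from 4646 to 5603 in M1, so that M1 and A46 did not overlap. Of 4 tested markers of pyramidal and cortical neurons at large, 2 were lower in M1 and 0 higher, with a median of -0.24: CAMK2A at -0.53 (limma adjusted p = 0.023) and NEUROD6 at -0.31 (adjusted p = 0.028). Both calls were lost without animal 1 (adjusted p = 0.163 and 0.17) and without animal 2 (0.285 and 0.438), and the sum of the 4 was 9810 to 10809 in A46 and 8160 to 10285 in M1, which overlapped. Of 9 listed oligodendrocyte genes 4 were tested, and all 4 were higher in M1: UGT8 by 2.26, PLLP by 1.55, SOX10 by 1.23 and MBP by 1.19. The sum of these 4 ranged from 5400.4 to 9002 in A46 and from 14111 to 20180.4 in M1, with PMv at 9856 to 14173 and PMd at 8953 to 13197. No marker of these lists was at an intensity of 0 on any array, but neither was any other probe set, the lowest value being 6.875. The absence of 0 therefore says nothing on detection.

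FREM3's pattern over the 12 animal means was most like those of LOC715721 (Pearson r = 0.98), EPHA3 (0.97), PCDH8 (0.96), DBN1 (0.96), SHC1 (0.95) and SH2D4B (0.95), among 15897 tested probe sets that name a single gene. EPHA3 encodes an ephrin receptor, PCDH8 a protocadherin, DBN1 the dendritic spine protein drebrin and SHC1 a signalling adaptor. EPHA3 showed a difference between M1 and A46 of -1.34, close in size to that of FREM3, while DBN1 showed -0.24 over the same areas. The most opposed patterns were those of ENPP2 (-0.97), UNC5B (-0.96) and GJB1 (-0.95). ENPP2, which encodes autotaxin, and GJB1, which encodes the gap junction protein connexin 32, are both abundant in oligodendrocytes. The 12 points share their animals and arrays, and the ranking is a description.

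Across the families, most members differed little between the areas. After the filter, 72 member probe sets for 51 genes were tested: 33 for collagens, 15 for integrin alpha chains, 11 for integrin beta chains, 9 for laminins, 3 for ITGB1BP1 and 1 for FREM3. In M1 against A46, 57 of the 72 lay within 0.2 of 0 on the log2 scale, 7 lay at 0.5 or beyond, and the median was 0.01 against -0.01 over all tested probe sets. By limma at an adjusted p of 0.05, 11 of 72 passed (15.3%), 9 higher and 2 lower in M1, where 12.9% of all 26383 tested probe sets passed (7.49% higher and 5.36% lower). A difference among any of the 4 areas was called for 8 of 72 members (11.1%) against 6.53% of all. The members' share is thus near that of the whole array for M1 against A46. For any area difference it is higher, on 8 calls, and this gap was not tested.

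**Figure D2:**
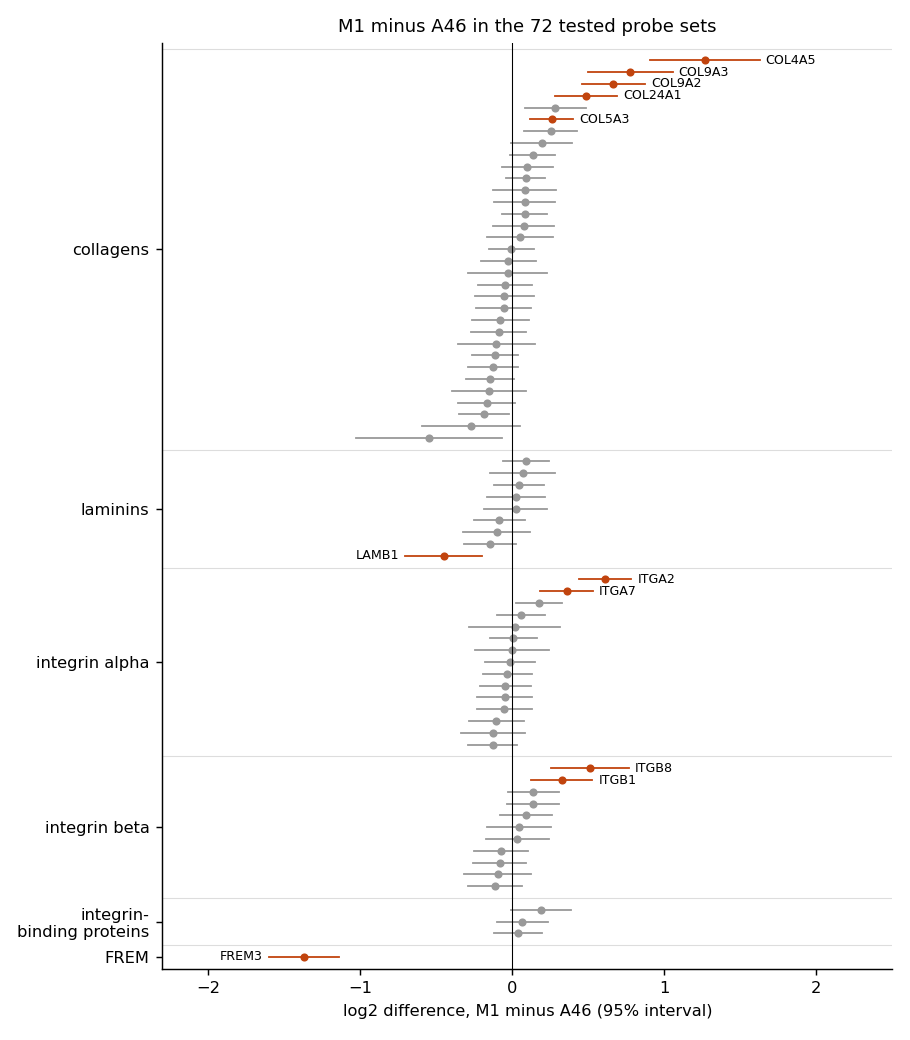
Log2 difference, M1 minus A46, of each of the 72 tested member probe sets, grouped by family, with 95% intervals; probe sets passing limma at an adjusted p of 0.05 are coloured. FREM3 at -1.37 and COL4A5 at 1.27 lie farthest from 0, and 57 of 72 lie within 0.2.

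Of the 11 that passed, COL4A5, COL9A2, COL9A3, ITGA2 and ITGA7 were higher and FREM3 was lower in M1 with no overlap between the 6 M1 and the 6 A46 arrays. Over the whole array, where 12.9% were called, 1885 of the 3391 called probe sets did not overlap (55.6%), near the members' 6 of 11 (54.5%). Both premotor means lay between those of A46 and M1 in all 8 members called among the areas; the same held for 1481 of the 1723 probe sets called over the whole array (86%). The M1 to A46 counts moved with the animals, as did those of the whole array. Without animal 2, FREM3 and COL4A5 (0.95, limma adjusted p = 0.0183) were the 2 members that passed, with 1.53% of all tested probe sets. Without animal 1, 9 members and 6.25% of all passed, and without animal 3, 13 members and 20.5% of all. With area as the only term, 5 members passed, FREM3, COL4A5, COL9A2, COL9A3 and ITGA2, with 4% of all.

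Of 33 collagen probe sets, 5 rose from A46 to M1 and 0 were lower, with a median of -0.00; the 15.2% called is near the 12.9% of all tested probe sets. The type IV chain COL4A5, a network-forming collagen of basement membranes, showed the largest rise. COL9A2 and COL9A3, chains of the fibril-associated type IX collagen, rose with it, as did the fibrillar collagens COL24A1 and COL5A3. A further collagen, COL11A1, was higher and COL3A1 lower only when the motor areas were averaged and compared with A46.

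COL4A5 intensity was 46.59 to 91.24 on the A46 arrays, with a median of 75.905, and 128.3 to 229.9 in M1, with a median of 174.25. PMv lay at 72.89 to 129.7 (median 100.5) and PMd at 75.5 to 135.6 (median 103.15). Every M1 array was above every A46 array, while both premotor areas overlapped each of them. The means were 6.15 ± 0.30 in A46 and 7.41 ± 0.31 in M1 (log2, SD, n = 3 animals), a 2.41-fold rise of 1.27 (SE 0.167, limma adjusted p = 0.000315). M1 also exceeded PMv, by 0.76 (limma adjusted p = 0.0378). The A46 to M1 difference was positive in all 6 hemispheres and was smallest in animal 3, where the animal means were 6.26 and 7.09. A second COL4A5 probe set was too dim to test and stood at 0.10; COL4A6, the chain that pairs with COL4A5 in some basement membranes, stood at -0.14 (limma adjusted p = 0.241).

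COL9A2 showed the tightest A46 values of the called collagens, 175.3 to 189.8 with a median of 178.9. The 6 M1 arrays ran from 240.8 to 370.5, with a median of 262.95, and none overlapped A46. The rise was 1.59-fold, or 0.67 (SE 0.0953, limma adjusted p = 0.000588), and PMd was above A46 by 0.41 (limma adjusted p = 0.0463), in arrays of 197.1 to 273.5. PMv stood at 0.39 (limma adjusted p = 0.0684), in arrays of 185.9 to 317.0 that reached into the A46 range. Animal 2 had the highest COL9A2 mean in all 4 areas, and its A46 to M1 rise was 0.98, against 0.51 in both other animals.

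COL9A3 ran from 85.77 to 149.7 in A46 (median 102.505) and from 150 to 245.9 in M1 (median 187.55), so that the lowest M1 array stood just above the highest of A46. Its rise was 1.71-fold, or 0.78 (SE 0.128, limma adjusted p = 0.00153). The third chain of the same trimer, COL9A1, stood at 0.25 and did not pass (limma adjusted p = 0.0559). COL9A2 lost its M1 call without animal 2 (adjusted p = 0.0522), as did COL9A3 (0.0906).

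COL24A1, a fibrillar collagen known from developing bone and cornea, ran from 32.59 to 58.86 in A46 and from 46.65 to 90.13 in M1, with overlap between animals: the animals accounted for 61.3% of its variance. Within each animal M1 was higher, by 0.24 in animal 1, 0.69 in animal 2 and 0.52 in animal 3. The fitted rise was 0.49 (SE 0.0943, limma adjusted p = 0.0045). COL24A1 lay close to the intensity filter of about 49.3 and passed it only through its M1 arrays. Its call is therefore a description and no independent support. COL5A3 rose by 0.26 (limma adjusted p = 0.0193), with 63.4% of its variance between animals and arrays of 219.9 to 339.0 in A46 and 283.8 to 353.7 in M1. Neither call held without animal 2 (adjusted p = 0.251 and 0.37), and COL5A3 was also lost without animal 1 (0.169).

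COL11A1, a chain of fibrillar type XI collagen, was higher in the 3 motor areas together than in A46 by 0.27 (limma adjusted p = 0.0383), although M1 alone stood at 0.28 without passing (adjusted p = 0.0618). Its M1 arrays were higher than the A46 array of the same hemisphere in 5 of 6 cases, and the motor call was lost without animal 2 (adjusted p = 0.429) and without animal 3 (0.113). COL3A1, the fibrillar collagen of vessel walls and meninges, was lower in the motor areas by a difference of -0.21 (limma adjusted p = 0.0499), with A46 arrays of 105.4 to 118.3 and M1 arrays of 86.22 to 107.1. That call was lost without animal 1 (adjusted p = 0.171) and without animal 2 (0.577).

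**Figure D3:**
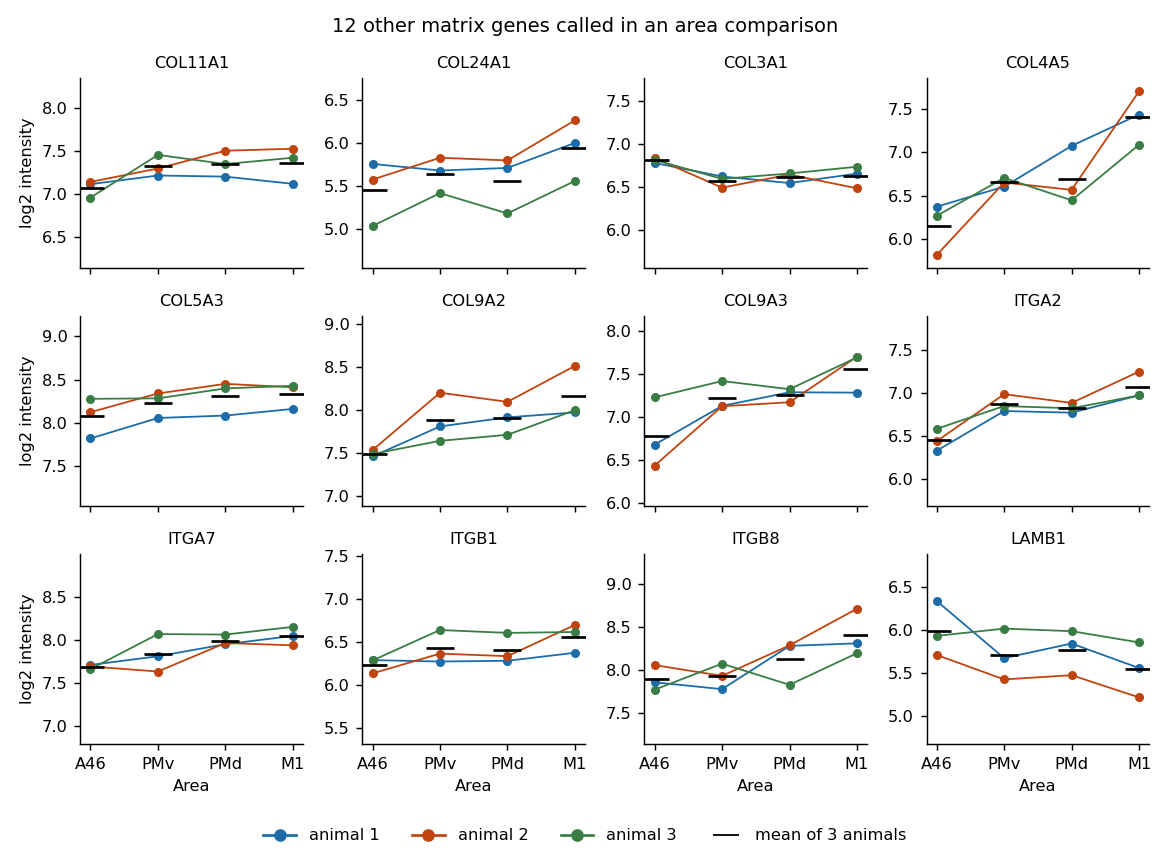
Log2 intensity of the 12 members other than FREM3 that passed in at least 1 area comparison, as animal means (mean of the hemispheres) in A46, PMv, PMd and M1, with a bar at the mean of 3 animals. COL4A5, COL9A2, COL9A3 and ITGA2 step up from A46 to M1, and LAMB1 steps down.

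The type I, type VI and type XII collagens did not pass in M1 against A46. COL1A2, a chain of type I collagen, stood at -0.55, but with a standard error of 0.221 (limma adjusted p = 0.134). Its A46 arrays ran from 96.4 to 319.3 and its M1 arrays from 67.06 to 129.6. The animals were not alike, with M1 minus A46 at -0.97 in animal 1, -0.70 in animal 2 and 0.03 in animal 3. COL1A1, the other chain, stood at -0.27 (limma adjusted p = 0.289). COL6A1 and COL6A2, chains of the beaded filament type VI, stood between -0.17 and -0.08 in 4 probe sets, COL12A1, a fibril-associated collagen, at -0.02, and COL5A2 between -0.15 and 0.20 in 4 probe sets. COL18A1, the basement membrane collagen that carries endostatin, stood at -0.05 and 0.09 in 2 probe sets. No probe set named COL4A1 or COL4A2, the main vascular type IV chains.

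Laminins, the cross-shaped trimers of basement membranes, showed 0 higher and 1 lower of 9 tested probe sets in M1, with a median of 0.02; that is 11.1% called against 12.9% of all. LAMB1, the beta chain of many embryonic and vascular laminins, ran from 51.99 through 61.215 to 82.11 in A46 and from 35.92 through 47.225 to 63.5 in M1, and these ranges overlapped. The difference was -0.45 (SE 0.117, limma adjusted p = 0.0229) and was negative in 5 of 6 hemispheres; animals accounted for 52.4% of the variance. The call was lost without animal 1 (adjusted p = 0.185) and without animal 2 (0.352). LAMC1, the gamma chain shared by most laminins, stood at 0.05, LAMB2, the beta chain of vascular and synaptic laminins, at 0.07, LAMA2, the alpha chain affected in congenital muscular dystrophy, at -0.08, and LAMA4, a chain of vessel laminins, at 0.09, none of which passed.

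Among integrin alpha chains, 2 of 15 tested probe sets rose from A46 to M1 and 0 were lower, with a median of -0.01; the 13.3% called is near the 12.9% of all. ITGA2, the alpha chain of a collagen receptor, was the only member that passed in M1, PMd and PMv against A46 alike. Its intensity was 71.16 to 105.9 in A46 (median 88.35), 103.4 to 136.7 in PMv (117.6), 98.3 to 142.0 in PMd (112.45) and 113.4 to 157.5 in M1 (136.5). M1 did not overlap A46, whereas the lowest premotor arrays did. The differences from the shared A46 group were 0.61 in M1 (SE 0.079, limma adjusted p = 0.000266), 0.42 in PMv (adjusted p = 0.0254) and 0.38 in PMd (adjusted p = 0.0312). Without animal 2 the M1 call for ITGA2 was lost (adjusted p = 0.0503).

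ITGA7, a laminin receptor chain best known from muscle, had arrays of 192.6 to 216.4 in A46 (median 206.3) and 237.7 to 301.9 in M1 (median 263.7), which did not overlap. It rose by 0.36 (SE 0.0804, limma adjusted p = 0.0107). The 3 tested ITGA7 probe sets disagreed: the others stood at 0.18 (adjusted p = 0.12) and -0.01 (adjusted p = 0.936), and the called one lost its call without animal 1 (0.0728) and without animal 2 (0.113). ITGA6, the alpha chain of the main laminin receptor, was read by 4 probe sets between -0.05 and 0.02. ITGA1, a collagen receptor chain, stood at -0.13, and ITGA8, a receptor chain for nephronectin, at 0.06.

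Integrin beta chains showed 2 higher and 0 lower of 11 tested probe sets, with a median of 0.05; that is 18.2% called against 12.9% of all. ITGB8, which pairs with the alpha V chain to activate latent transforming growth factor beta in brain, ran from 202.3 through 239.9 to 292.8 in A46. In M1 it ran from 269.2 through 322.55 to 435.7, overlapping the top of the A46 range. Its rise was 0.51 (SE 0.118, limma adjusted p = 0.0124), with PMd at 0.24 and PMv at 0.03 not passing. The remaining 3 ITGB8 probe sets were too dim to test, at 0.11, -0.03 and 0.22. ITGB1, the beta chain that pairs with ITGA2 and ITGA7 among many others, had A46 arrays of 69.38 to 82.68 and M1 arrays of 77.55 to 118.9, and rose by 0.33 (SE 0.0934, limma adjusted p = 0.0363).

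Neither beta chain passed without animal 2 (adjusted p = 0.267 for ITGB8 and 0.595 for ITGB1). ITGB2, the leukocyte and microglial beta chain, stood at -0.07 and 0.09, ITGB4, the hemidesmosome chain that pairs with ITGA6, at 0.04 and 0.14, ITGB5, a vitronectin receptor chain, at 0.14, and ITGB3, the platelet chain, at -0.10 and -0.11. None of these passed. Alpha chains named by a letter lie outside the rule: ITGAM, the partner of ITGB2 in microglia, was higher in M1 by 0.26 (limma adjusted p = 0.0157), and ITGAV, the partner of ITGB8, stood at -0.20 (adjusted p = 0.077). ITGB1BP1, which binds the tail of ITGB1, gave 3 tested probe sets at 0.07, 0.19 and 0.04, with 0 called by limma.

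**Figure D4:**
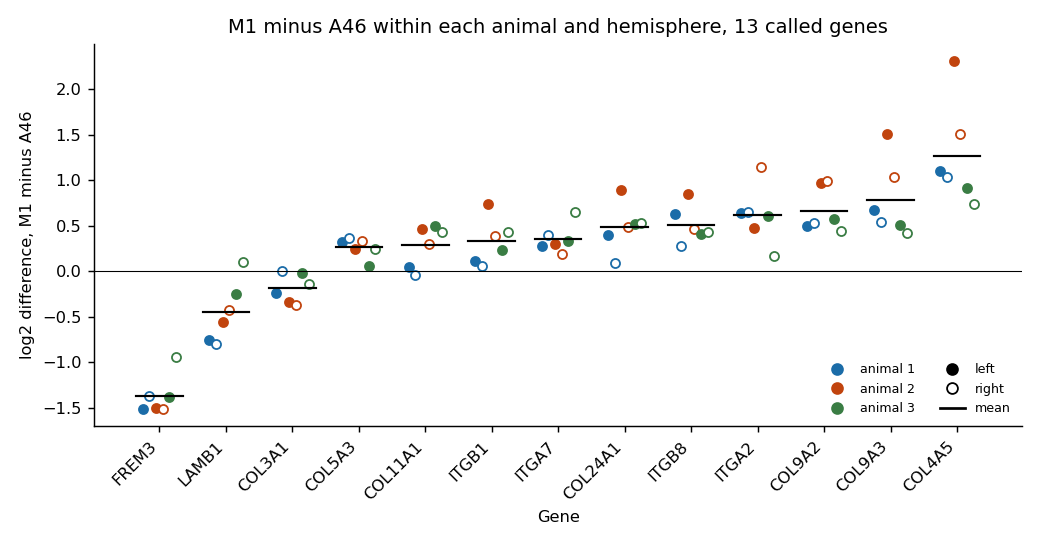
Log2 difference, M1 minus A46, within each animal and hemisphere for the 13 members that passed in at least 1 area comparison. FREM3 lies between -1.51 and -0.94 in the 6 hemispheres, and LAMB1 is below 0 in 5 of 6.

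The premotor areas differed from A46 in fewer members. In PMd, 3 of 72 passed by limma, with ITGA2 and COL9A2 higher and FREM3 lower, against 1.95% of all tested probe sets (1.39% higher and 0.561% lower). In PMv, ITGA2 was the 1 that passed, being higher, against 1.23% of all (0.629% higher and 0.599% lower). Between M1 and PMd, FREM3 alone passed of 72, against 0.33% of all (0.159% lower). Between M1 and PMv, COL4A5 was higher and FREM3 lower in M1, against 1.87% of all (1.41% higher and 0.466% lower). PMd and PMv gave 0 of 72 by limma, against 0.00758% of all that passed. At an unadjusted p under 0.05 the counts were 6 of 72 members and 1425 of all 26383 tested probe sets. The 3 motor areas together differed from A46 in 9 members, 7 higher and 2 lower, against 9.96% of all (5.26% higher and 4.7% lower).

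The other counts moved with the animals too, in the members and in the whole array. PMd against A46 gave 0 members without animal 1 and 0 without animal 2 but 10 without animal 3, where 0.152%, 0.0455% and 11.6% of all tested probe sets passed. PMv against A46 gave 0, 0 and 14 members, beside 0.178%, 0.00379% and 26.6% of all. The M1 to PMd count was 0 without animal 2 and 2 without animal 3 (0% and 0.906% of all), and the M1 to PMv count was 1, 0 and 10 without animals 1, 2 and 3 (0.258%, 0.0796% and 14.5% of all). PMd against PMv gave 4 members without animal 3 (5.3% of all). The count for the motor areas together was 1 without animal 2 and 15 without animal 3 (0.682% and 24.5% of all). The count among any of the areas was 4, 1 and 19, beside 2.31%, 0.489% and 29.4% of all. With area as the only term, PMd against A46, PMv against A46 and M1 against either premotor area gave 0 members, the motor areas together 3 and any area 3, where 1.82% and 1.09% of all passed.

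Hemispheres did not separate the members. Left against right, over animal means, gave 0 of 72 by limma, where 0.144% of all tested probe sets passed. At an unadjusted p under 0.05 there were 6 members, a count for which no whole-array share is given here. FREM3 stood at -0.10 left minus right (limma adjusted p = 0.771). Leaving out an animal gave between 1 and 3 members, with 0.519% to 1% of all tested probe sets: ITGA6 (-0.31), COL7A1 (-0.30) and COL1A2 (-0.25) without animal 1, ITGB8 (-0.24) without animal 2, and ITGA6 (-0.29) and ITGB8 (-0.24) without animal 3.

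The 62 member probe sets below the filter were dim in these tissues. They include every probe set of COL2A1, the cartilage collagen, COL4A3 and COL4A4, the kidney basement membrane chains, COL25A1, a transmembrane collagen of neurons, LAMA1 and COL6A3. When the filter was dropped, 13 of all 134 members passed between M1 and A46, against 5.97% of the whole array, and 3 of these lay below the filter. Any area difference was then called for 9 of 134, against 3.26%. A second ITGA2 probe set rose by 0.81 (limma adjusted p = 0.00092), in the direction of the first, and a second LAMB1 probe set showed -0.79 (adjusted p = 0.000582), also in the direction of the first. COL13A1, a transmembrane collagen, showed -0.46 (limma adjusted p = 0.022) in a probe set of 18.44 to 38.39 in A46 and 17.31 to 21.5 in M1. Those ranges overlapped, as did those of its other probe set, at 45.08 to 59.22 in A46 and 41.83 to 51.63 in M1.

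Other genes of the matrix were set beside the members in lists by role. Each list gene and each cell type marker was read from its tested probe set of highest mean intensity. For M1 against A46, 7.49% of all tested probe sets passed upward and 5.36% downward. Proteoglycans and the perineuronal net, the dense matrix around fast-firing inhibitory neurons, held the largest differences: 5 of 22 tested genes were higher in M1 than in A46 and 0 lower, with a list median of -0.02. ACAN, the core proteoglycan aggrecan, rose by 1.79 (SE 0.172, limma adjusted p = 3.8e-05), in 2 of its 3 probe sets. HAPLN4, a link protein of these nets, rose by 1.47 (limma adjusted p = 3.49e-06) and HAPLN2, the link protein of nodes of Ranvier, by 1.22 (adjusted p = 6.4e-05). VCAN, the proteoglycan versican, rose by 0.48 and SDC4, a syndecan that acts beside integrins, by 0.37, while BCAN (brevican) stood at -0.03 and HAPLN1 at -0.13.

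Proteases and their inhibitors gave 4 higher and 1 lower of 15 tested, with a median of 0.03. ADAMTS4, a protease that cuts aggrecan, rose by 1.46 (limma adjusted p = 7.24e-05), ADAMTS1 by 0.53 and ADAMTS9 by 0.40. Of the inhibitors of matrix metalloproteinases, TIMP1 rose by 0.27 and TIMP2 was lower at -0.46. ADAMTS9 was called in 2 of its 5 tested probe sets, TIMP1 in 1 of 3 and TIMP2 in 1 of 2. Basement membrane partners of the collagens and laminins gave 1 higher and 1 lower of 12. They were SMOC1 at 0.48, called in 1 of its 2 tested probe sets, and AGRN, which encodes agrin, at -0.24. Enzymes and chaperones of collagen maturation gave 2 higher and 3 lower of 18. PLOD2, a lysyl hydroxylase, stood at 0.39, and P4HA1, a prolyl hydroxylase called in 1 of its 2 tested probe sets, at -0.32. Focal adhesion proteins, which link integrins to actin, gave 2 higher and 2 lower of 20. FERMT2 (kindlin-2), called in 1 of its 3 tested probe sets, stood at 0.43 and TLN2 (talin-2) at -0.37. Of the 22 partner genes called in these lists and the FRAS1 complex, 13 passed without animal 1, 4 without animal 2 (ACAN, HAPLN4, HAPLN2 and ADAMTS4) and 21 without animal 3.

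**Figure D5:**
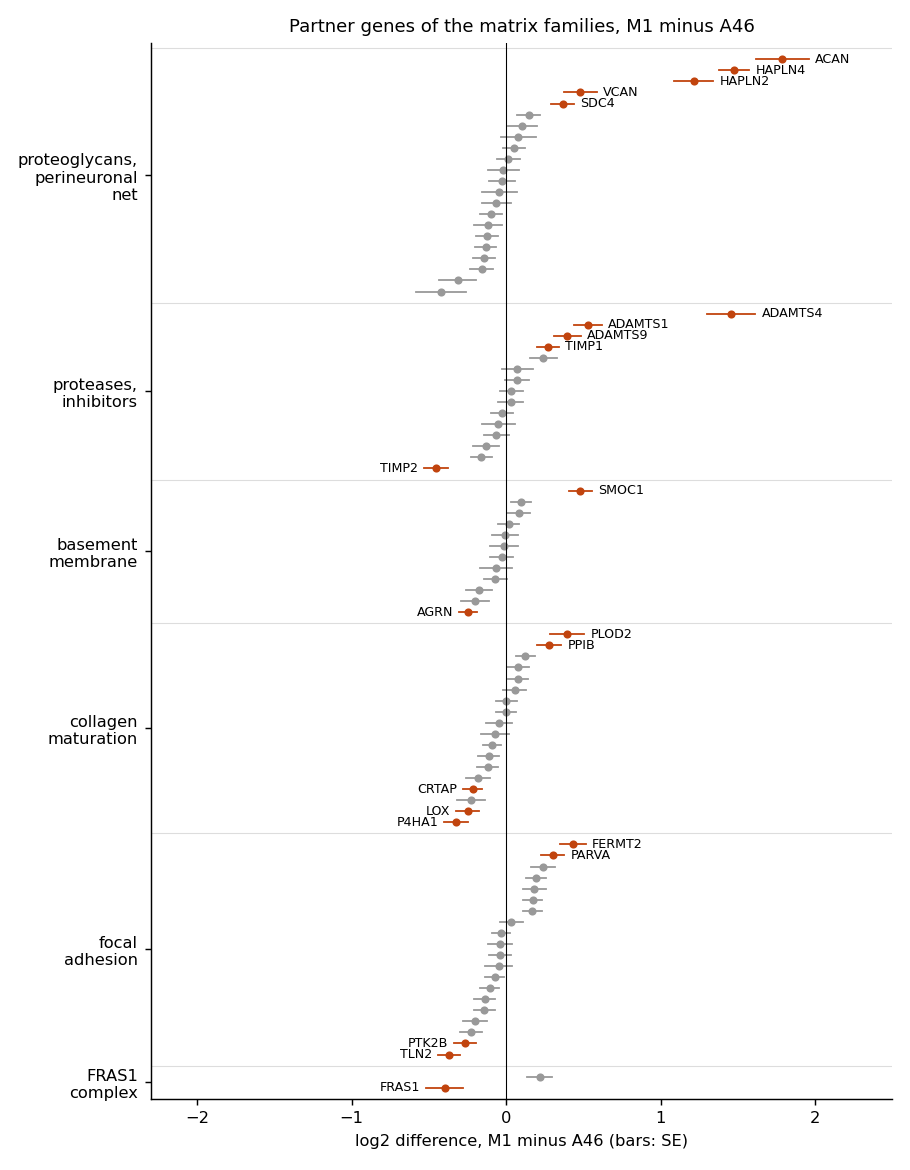
Log2 difference, M1 minus A46, of the tested genes of 6 lists of matrix partners, with bars of 1 standard error; genes passing limma at an adjusted p of 0.05 are coloured. ACAN at 1.79, HAPLN4 at 1.47 and ADAMTS4 at 1.46 lie farthest to the right, while the medians of the lists lie near 0.

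Cells that make much of the brain's collagen and laminin are those of vessels and meninges. The medians of their marker lists lay between -0.10 and 0.04 in M1 against A46. Of 7 tested endothelial markers 1, the glucose transporter SLC2A1, was higher in M1, a call lost when any 1 animal was left out (adjusted p between 0.0508 and 0.394). The list's sum was 1252 to 1319 in A46 and 1328 to 1383 in M1, which did not overlap. Pericyte and smooth muscle markers gave 0 of 5 by limma, with a median of -0.10 and sums of 809 to 860 in A46 and 747 to 826 in M1. Fibroblast and meningeal markers gave 1 higher (SLC47A1) and 1 lower (MGP) of 7, with sums of 1151 to 1627 in A46 and 1156 to 1371 in M1. Microglial markers gave 1 higher (TYROBP) and 1 lower (CD68) of 8, and astrocyte markers 1 higher (S100B) of 5. The calls of SLC47A1, MGP, TYROBP and CD68 were lost without animal 1 and without animal 2 (limma adjusted p between 0.0817 and 0.406). That of S100B was lost without animal 2 (adjusted p = 0.128). The part of these cell types in the members' differences was not tested.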

How the data were processed

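The table deposited by the authors holds probe set intensities on a linear scale from 24 Affymetrix rhesus arrays, processed with RMA per the submitters' processing notes; its version and the step back from log2 are stated in none of the labels. RMA pulls the arrays to a common distribution, so a change of total RNA per cell is not visible. Values were taken to log2, 99 control probe sets were removed, and probe sets with a mean log2 below the median of 5.62 were left out, leaving 26383. Gene names came from the platform annotation: 24956 probe sets name 1 gene, 361 several and 27449 none; 63 of the 66 member genes matched a current entry by gene identifier. Hemispheres were averaged to 12 means (3 animals by 4 areas), and limma 3.58.1 in R 4.3.3 was fitted with area and animal as terms and an intensity trend in eBayes (6 residual and 6.98 prior degrees of freedom). P-values were adjusted by Benjamini-Hochberg over all tested probe sets. The animal term comes from the labels, which give the same 3 animals in every area; deviations of means from 1 animal correlated at 0.207 to 0.85 over 18 pairs. Left and right were compared over 6 means. Single arrays were not tested as replicates.

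Intensities of different probe sets are not comparable as levels. They were used for the filter, for the probe set read for each list gene, for picking some genes to name and for the summed marker intensities. Such a sum is weighted toward its brightest probe sets and does not stand for every gene of its list. The text draws no other order from them. Arrays correlated at 0.977 to 0.997, with median intensities of 47.9 to 51.7. The 3′ minus 5′ difference of the actin control probes was 1.08 ± 0.11 in A46 and 0.94 ± 0.05 in M1 (log2, SD, n = 3 animals), that of GAPDH 0.84 ± 0.05 and 0.96 ± 0.04. Precision is set by there being 3 animals.

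The members, the lists of partner genes and markers, and FREM3 as leading gene were chosen with earlier results of these data known. The text names every gene called in an area comparison, the genes with the highest and lowest mean intensity of a family, a list of well-known members, the 6 genes most like FREM3 and the 3 most opposed, and up to 5 called genes of each partner list. Alternatives were leaving out each animal, no animal term, no filter or a mean log2 of at least 7, all 24 arrays with a random block, log2(intensity + 16), quantile normalization and eBayes without the trend. The scripts were tested on simulated data.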

Additional observations from a re-analysis of the deposited data

How the results depend on the processing

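The counts of members called moved with which animals entered, as did those of all tested probe sets (0.489% to 29.4% for any area and 1.53% to 20.5% for M1 against A46). Leaving out each animal gave 1 to 19 for any area, 2 to 13 for M1 against A46, 0 to 10 for PMd against A46, 0 to 14 for PMv against A46, 0 to 2 for M1 against PMd, 0 to 10 for M1 against PMv, 0 to 4 for PMd against PMv, 1 to 15 for the motor areas against A46 and 1 to 3 for left against right. Without the replicate block (area as the only term) the counts were 3 for any area, 5 for M1 against A46, 3 for the motor areas, and 0 for PMd against A46, PMv against A46, M1 against PMd and M1 against PMv. All 24 arrays with a random block gave 6 for PMd against A46, 4 for PMv against A46, 2 for M1 against PMd and 4 for M1 against PMv. A mean log2 of at least 7 gave 5 for any area and 1 for M1 against PMv. No filter gave 1 for PMd against A46, eBayes without the trend gave 1 there, and quantile normalization gave 3 for PMv against A46. The cause of these shifts was not tested.

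The 37 results of single genes followed include 8 F tests, which have no sign, and the FREM3 comparisons that did not pass in the main fit. Among the called differences between areas, 0 changed sign under the alternatives run. Of the 37 results, 31 lost their call when animal 2 was left out, 15 when animal 1 was and 1 when animal 3 was. Dropping the animal term lost 24. FREM3 between M1 and A46 passed by limma under every one of the 10 alternatives. Dim probe sets limit what can be said of the 62 members below the filter.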
